A study of Mus musculus with 12 samples.

Results

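The genes described here are 10 genes of the p53 pathway: Trp53, which encodes p53 itself, and its targets Mdm2, Cdkn1a, Ccng1, Zmat3, Phlda3, Trp53inp1, Sesn1, Eda2r and Ei24. They were found by gene symbol among the 56748 genes of the deposited count table, and all 10 passed the filter on low counts that left 14794 genes for testing. Transcripts were measured by RNA sequencing in Ba/F3 cells, a mouse line described by the labels as pro-B cells, which normally needs interleukin-3 (IL-3). Every library, the ZsGreen controls included, comes from cells with NRAS G12D, a constantly active RAS. All cells were sorted into IL-3-free medium (day 0), given fresh medium (day 2) and collected for RNA (day 3). The 4 groups of 3 libraries differ in the construct the cells received. ZsGreen cells carried the fluorescent marker alone, and ETV6 WT cells carried wild-type ETV6, an ETS-family repressor, joined to ZsGreen through an IRES. P214L and I209S P214L cells carried ETV6 with these amino acid changes in the same kind of construct. By the design text, the P214L change gives ETV6 a signal for export from the nucleus, which the added I209S change disrupts. The question is whether the doubly changed protein acts on transcripts as wild-type ETV6 does.

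The labels name neither the promoter that drives the constructs nor whether the cells were clones, and the constructs were added to cells that keep their own Etv6. Whether the 3 libraries of each group were grown apart is not said either, and p-values measure only the spread between them, which may be technical. The state of the Trp53 gene in these cells is not given by the labels. RNA of a whole culture was measured, so a gene that is lower in fewer cells and a gene that is lower in every cell cannot be told apart.

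p53 is a transcription factor that is held at a low level because its own target Mdm2, a ubiquitin ligase, marks it for destruction. DNA damage, oncogene activity and other stresses release it, and it then turns on genes that stop the cell cycle, repair DNA, change metabolism or kill the cell. In developing blood cells the pathway removes damaged cells, and its loss is a common step in leukemia and lymphoma. Most control of p53 acts on the protein, so the level of Trp53 RNA is not a measure of p53 activity.

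p53 binds a pair of similar 10-base elements, here called p53 decamers. Promoter windows from RefSeq (build GRCm38.p6, 250 bases before to 50 after the start of a transcript) were at hand for 8 of the 10 genes in 10 windows. Zmat3 and Trp53inp1 had none. The p53 consensus decamer, searched on both strands, was present in the windows of 6 genes, and 8.36% of the 32851 promoter windows of the table hold it. Cdkn1a alone of the 8 genes had a pair of exact decamers no more than 13 bases apart, an arrangement found in 0.0731% of all windows. The ETS site CCGGAAGT, searched on both strands, was in none of the 10 windows and in 3.89% of all windows, while its core GGAA, which it contains, was in all 10 and in 96% of all windows. The stretches with a decamer are shown to set the paired arrangement of Cdkn1a beside the single decamers found in the windows of the other genes. Decamers with a mismatch to the consensus, and sites outside the windows, were not searched. Each is written 5′ to 3′ on the gene's strand with the decamer in capitals.
Cdkn1a, chr17:29090886-29090957, plus strand: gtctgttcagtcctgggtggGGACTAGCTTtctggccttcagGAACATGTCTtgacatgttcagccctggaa
Trp53, chr11:69580264-69580313, plus strand: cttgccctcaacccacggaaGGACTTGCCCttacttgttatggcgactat
Mdm2, chr10:117710915-117710964, minus strand: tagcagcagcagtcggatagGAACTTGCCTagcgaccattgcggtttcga
Ccng1, chr11:40755442-40755491, minus strand: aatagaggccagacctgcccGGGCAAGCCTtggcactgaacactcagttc
Ei24, chr9:36797335-36797364, minus strand: ccagctgccccgtgcggcccGGGCATGCCC
Sesn1, chr10:41887246-41887295, plus strand: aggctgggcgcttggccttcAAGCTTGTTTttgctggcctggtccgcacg
The Cdkn1a decamers start 73 and 51 bases before the transcript start, that of Trp53 75 bases before it, those of Mdm2 and Ccng1 186 and 185 bases before it, that of Ei24 10 bases before it and that of Sesn1 173 bases before it. A match describes the letters and does not show that p53 binds there.

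Total counts per library lay between 14301683 and 18607595. The marker list of pro-B cells was mostly silent: 8 of its 10 genes had a mean under 1 CPM (counts scaled to a common library size with TMM factors), and Igll1 and Rag1 were among those with no count in any library. Cd79b stood at 5.86 to 12.9 CPM and the leukocyte gene Ptprc at 314 to 749.5 CPM. Summed over 7 genes, neutrophil and monocyte markers stood at 21.4 to 31.6 CPM with ZsGreen, 2.38 to 3.14 CPM under ETV6 WT, 74.4 to 114.7 CPM with P214L and 2.09 to 3.56 CPM with I209S P214L, with Ly6g at no count in all 12 libraries. Summed over 4 genes, erythroid markers stood at 76.1 to 78.2, 236 to 331, 51.1 to 86.5 and 239 to 375 CPM in the same order. Of 5 genes chosen for an IL-3 dependent line, Kit was near 0 and the summed level was 1083 to 1150, 4995 to 5495, 1797 to 1970 and 5319 to 5639 CPM, most of it from the receptor chains Csf2rb and Csf2rb2. Mast cell markers stayed at or under 2.08 CPM in sum. T cell markers stayed under 0.35 CPM in sum and fibroblast markers under 0.51 CPM. The part of these shifts in the changes of p53 pathway genes was not tested. ZsGreen 1, ETV6 WT 1 and I209S P214L 1 lay on one side of the second principal component (70.7, 22.4 and 21.2, with all other libraries below 0), and 18S ribosomal RNA took 1.58% and 1.35% of counts in the latter pair of libraries against 2.92% to 5.9% in the others.

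Each of the 10 genes differed among the 4 groups (10 of 10 called, where 41% of all genes tested were called; edgeR quasi-likelihood test, Benjamini-Hochberg adjusted p under 0.05). The differences did not run one way. With ETV6 WT and with I209S P214L, Trp53, Zmat3, Sesn1 and Ei24 fell while Mdm2 and Trp53inp1 rose. Eda2r was also called lower with I209S P214L, a call that 9 of 12 leave-one-out fits lost. With P214L, Mdm2, Cdkn1a and Trp53inp1 rose and no member fell. Levels by length, from the authors' FPKM (reads scaled by gene length and library size), differed widely between the genes: in ZsGreen cells Ccng1 stood at 169.5 ± 6.47 FPKM, Cdkn1a at 53.8 ± 3.46 and Trp53 at 53.7 ± 5.27, Mdm2 at 23.0 ± 0.982, Ei24, Phlda3, Zmat3, Sesn1 and Trp53inp1 between 12.4 and 20.4, and Eda2r at 0.276 ± 0.0681 (SD, n = 3).

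**Figure D1:**
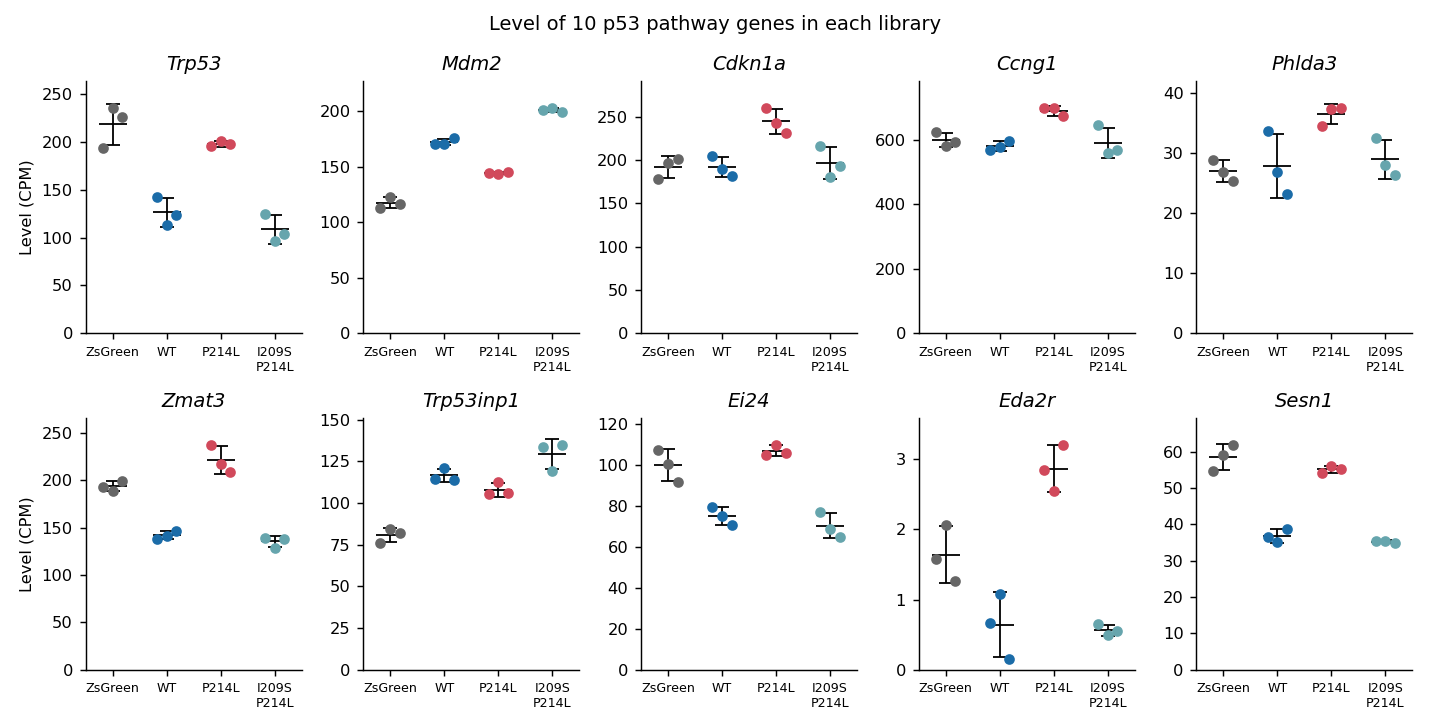
Level of each gene in CPM (vertical axes, from 0) in the 4 groups; points are the 3 libraries of a group and bars the mean and SD. Trp53, Zmat3, Sesn1 and Ei24 sit lower with ETV6 WT and I209S P214L than with ZsGreen and P214L, Mdm2 rises in the order ZsGreen, P214L, ETV6 WT, I209S P214L, and Cdkn1a, Ccng1 and Phlda3 are highest with P214L.

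Trp53 (ENSMUSG00000059552; chromosome 11, 69471185 to 69482699 on mm39), the gene of p53, stood at 194, 236 and 226 CPM in the ZsGreen libraries, 143, 113 and 124 CPM under ETV6 WT, 196, 202 and 198 CPM with P214L, and 125, 96.7 and 104 CPM with I209S P214L. Every ETV6 WT and I209S P214L library lay below every ZsGreen and P214L library. Trp53 fell 1.73-fold with ETV6 WT against ZsGreen (log2 fold change -0.79 ± 0.10 SE, adjusted p = 5.58e-06) and 2.01-fold in I209S P214L cells (-1.01 ± 0.10, adjusted p = 2.66e-07). It was 1.83-fold lower with I209S P214L than with P214L (-0.87, adjusted p = 2.49e-06), and 1.57-fold higher with P214L than with ETV6 WT (0.65, adjusted p = 7.49e-05). With P214L the libraries overlapped those of ZsGreen and no change was called (-0.14 ± 0.10, adjusted p = 0.508). It was called without some libraries: leaving out ZsGreen 1, ETV6 WT 1 and I209S P214L 1 gave -0.22 with an adjusted p of 0.0342. An antisense long noncoding gene overlaps Trp53 over 324 bases and had 26 to 69 counts per library, where Trp53 had 1386 to 3757.

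Mdm2 (ENSMUSG00000020184; chromosome 10, 117524780 to 117546663) encodes the ligase that marks p53 for destruction and is itself a p53 target. Its level was 113, 123 and 117 CPM with ZsGreen, 171, 171 and 176 CPM under ETV6 WT, 144, 143 and 145.5 CPM with P214L, and 201, 203 and 199.6 CPM with I209S P214L. No group overlapped another, and the spread within a group was at most 5.15 CPM (SD, n = 3). Mdm2 rose 1.47-fold with ETV6 WT (0.55 ± 0.06, adjusted p = 8.13e-07), 1.23-fold in P214L cells (0.30 ± 0.06, adjusted p = 0.00553) and 1.71-fold in I209S P214L cells (0.78 ± 0.06, adjusted p = 1.06e-08). It was lower with P214L than with ETV6 WT (-0.26, adjusted p = 0.00282), and higher with I209S P214L than with P214L (0.48, adjusted p = 5.3e-06). The step from ETV6 WT to I209S P214L (0.22 ± 0.06) separated all libraries, yet was not called after adjustment over 14794 genes (edgeR adjusted p = 0.62). DESeq2 called it (0.23, adjusted p = 0.021), but adjusted over only 5485 genes in this comparison. In the authors' deposited table its adjusted p is 0.662. The order of the Mdm2 levels was thus ZsGreen, P214L, ETV6 WT and I209S P214L, with every neighbouring step called except the last.

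Cdkn1a (ENSMUSG00000023067; chromosome 17, 29309950 to 29319701) encodes p21, the inhibitor of cyclin-dependent kinases through which p53 stops the cell cycle. It stood at 178, 197 and 202 CPM with ZsGreen, 204, 190.2 and 182 CPM under ETV6 WT, 260.5, 243 and 231.5 CPM with P214L, and 217, 181 and 193 CPM with I209S P214L. Every P214L library lay above every other library, and the remaining groups overlapped. Cdkn1a rose 1.27-fold with P214L against ZsGreen (0.35 ± 0.08, adjusted p = 0.0121), a call that was lost without ZsGreen 1 (adjusted p = 0.0733) or P214L 1 (adjusted p = 0.0896). It was also higher with P214L than with ETV6 WT (0.35, adjusted p = 0.00219), and lower with I209S P214L than with P214L (-0.32 ± 0.08, adjusted p = 0.00436). Against ZsGreen, the difference was 0.00 ± 0.08 with ETV6 WT (adjusted p = 0.998) and 0.04 ± 0.08 in I209S P214L cells (adjusted p = 0.761). The gene 1700023B13Rik overlaps Cdkn1a over 1046 bases on the opposite strand and had 33 to 115 counts per library, where Cdkn1a had 2595 to 4120. Whether the counting used strand is not given, so reads in such overlaps cannot be assigned.

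Ccng1 (ENSMUSG00000020326; chromosome 11, 40639379 to 40646138) encodes cyclin G1, which brings a phosphatase to Mdm2 and dampens p53. It stood at 623.5, 581 and 592 CPM with ZsGreen, 568, 578 and 597 CPM under ETV6 WT, 699, 699 and 673 CPM with P214L, and 646, 559.9 and 569 CPM with I209S P214L. As for Cdkn1a, each P214L library was above each library of the other groups. The rise with P214L was called against ETV6 WT (0.25 ± 0.06, adjusted p = 0.00563), and I209S P214L was called lower than P214L (-0.22, adjusted p = 0.0104), although not without I209S P214L 2 (adjusted p = 0.0508). Against ZsGreen the value with P214L was 0.21 ± 0.06 and missed the threshold (adjusted p = 0.0701), where DESeq2 gave an adjusted p of 0.0163. The values against ZsGreen were -0.04 under ETV6 WT (adjusted p = 0.634) and -0.02 in I209S P214L cells (adjusted p = 0.853).

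Phlda3 (ENSMUSG00000041801; chromosome 1, 135693857 to 135696874) encodes a lipid-binding protein that competes with the kinase Akt for the membrane. The libraries held 28.9, 26.9 and 25.3 CPM with ZsGreen, 33.7, 26.9 and 23.1 CPM under ETV6 WT, 34.6, 37.4 and 37.5 CPM with P214L, and 32.6, 27.96 and 26.3 CPM with I209S P214L. P214L was again highest in each library. It was called against ETV6 WT (0.39 ± 0.13, adjusted p = 0.0293), a call lost without ETV6 WT 2, ETV6 WT 3, P214L 2 or P214L 3 (adjusted p 0.0844 to 0.145). It missed the threshold against ZsGreen (0.43 ± 0.13, adjusted p = 0.0632), but was called with DESeq2 (adjusted p = 0.0392), without the filter (0.0183), with only the compared groups (0.0159), with a replicate block (0.0343), and without ETV6 WT 1, ETV6 WT 3 or I209S P214L 1 (0.0243 to 0.0451). I209S P214L against P214L also missed it (-0.33 ± 0.13, adjusted p = 0.0567), and was called with limma-voom (0.0487), with only the compared groups (0.0228), with the block (0.0298), and without ETV6 WT 1, ETV6 WT 3 or I209S P214L 1 (0.0247 to 0.0341). Against ZsGreen, Phlda3 stood at 0.04 with ETV6 WT (adjusted p = 0.833) and at 0.10 with I209S P214L (adjusted p = 0.587).

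Zmat3 (ENSMUSG00000027663; chromosome 3, 32388941 to 32420163) encodes an RNA-binding zinc finger protein that acts in splicing and RNA stability. It stood at 192, 189 and 199 CPM with ZsGreen, 138, 141 and 147 CPM under ETV6 WT, 237, 217 and 208 CPM with P214L, and 139, 129 and 138 CPM with I209S P214L. The ETV6 WT and I209S P214L libraries overlapped each other and lay below the other groups. Zmat3 fell 1.36-fold with ETV6 WT (-0.45 ± 0.07, adjusted p = 3.18e-05) and 1.43-fold in I209S P214L cells (-0.52 ± 0.07, adjusted p = 5.31e-06). P214L libraries lay above ZsGreen libraries without a call (0.19 ± 0.07, adjusted p = 0.109), and P214L exceeded ETV6 WT 1.56-fold (0.64, adjusted p = 8.21e-07). I209S P214L was lower than P214L (-0.71, adjusted p = 1.86e-07).

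Trp53inp1 (ENSMUSG00000028211; chromosome 4, 11156431 to 11174379) encodes a stress-induced nuclear protein that promotes cell death through p53. Its level was 75.9, 84.4 and 82.2 CPM with ZsGreen, 114.5, 121 and 114 CPM under ETV6 WT, 105, 113 and 106 CPM with P214L, and 134, 119 and 135 CPM with I209S P214L. All 9 libraries with an ETV6 construct lay above the ZsGreen libraries. The rise was 1.44-fold with ETV6 WT (0.53 ± 0.07, adjusted p = 1.34e-05), 1.33-fold in P214L cells (0.42 ± 0.07, adjusted p = 0.00169) and 1.599-fold in I209S P214L cells (0.68 ± 0.07, adjusted p = 6.27e-07). P214L and ETV6 WT were not called apart (-0.11 ± 0.07, adjusted p = 0.282). I209S P214L was higher than P214L (0.26, adjusted p = 0.00898), a call lost without P214L 1 (adjusted p = 0.0508) or I209S P214L 3 (adjusted p = 0.0543).

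Ei24 (ENSMUSG00000062762; chromosome 9, 36690455 to 36708689) encodes a protein of the endoplasmic reticulum that takes part in autophagy and cell death. It stood at 107, 101 and 91.7 CPM with ZsGreen, 79.5, 75.1 and 70.8 CPM under ETV6 WT, 105, 109.9 and 106 CPM with P214L, and 77.0, 68.7 and 65.1 CPM with I209S P214L. Its groups fell into the same pairs as those of Trp53. Ei24 fell with ETV6 WT (-0.41 ± 0.08, adjusted p = 0.000517) and in I209S P214L cells (-0.51 ± 0.08, adjusted p = 6.06e-05), and was not called with P214L (0.10 ± 0.08, adjusted p = 0.576). P214L was higher than ETV6 WT (0.51, adjusted p = 0.000101), and I209S P214L was lower than P214L (-0.61, adjusted p = 1.29e-05). The long noncoding gene Gm26787 overlaps Ei24 over 3519 bases on the opposite strand. It had 0 to 3 counts per library, where Ei24 had 985 to 1902.

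Eda2r (ENSMUSG00000034457; chromosome X, 96377446 to 96420822), a receptor of the tumor necrosis factor family, was close to the limit of detection. Its counts were 28, 31 and 21 with ZsGreen, 11, 19 and 3 under ETV6 WT, 41, 43 and 49 in P214L cells, and 12, 7 and 9 in I209S P214L cells. As CPM the group means were 1.64 ± 0.404, 0.638 ± 0.463, 2.86 ± 0.332 and 0.562 ± 0.0786 (SD, n = 3). P214L stood highest, 4.47-fold above ETV6 WT (2.16 ± 0.58, adjusted p = 0.00891) and 5.02-fold above I209S P214L (-2.33 for the latter against P214L, adjusted p = 0.0052). The value against ETV6 WT was 2.78 without ETV6 WT 2 and 1.70 without ETV6 WT 3. Against ZsGreen the values were -1.35 ± 0.58 with ETV6 WT (adjusted p = 0.078; -1.98 without ETV6 WT 2, where it was called, and -0.90 without ETV6 WT 3), 0.81 ± 0.55 in P214L cells (adjusted p = 0.495) and -1.52 ± 0.59 in I209S P214L cells. The last was called (adjusted p = 0.0474), but 9 of 12 leave-one-out fits lost it, with adjusted p from 0.0222 to 0.115. Leaving out each P214L library, each I209S P214L library, ZsGreen 1, ZsGreen 2 or ETV6 WT 1 removed the call. So did edgeR without TMM (adjusted p = 0.0532), without the filter (0.087), with only the compared groups (0.093) or with a replicate block (0.0622). With limma-voom the adjusted p was 0.0741.

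Sesn1 (ENSMUSG00000038332; chromosome 10, 41685931 to 41784420) encodes sestrin 1, which restrains the growth kinase mTORC1 under stress. It stood at 54.8, 59.2 and 61.9 CPM with ZsGreen, 36.5, 35.1 and 38.7 CPM under ETV6 WT, 54.1, 56.0 and 55.3 CPM with P214L, and 35.3, 35.5 and 34.9 CPM with I209S P214L. ZsGreen and P214L overlapped, as did ETV6 WT and I209S P214L, with a clear gap between these pairs. Sesn1 fell 1.59-fold with ETV6 WT (-0.67 ± 0.08, adjusted p = 4.52e-06) and 1.66-fold in I209S P214L cells (-0.73 ± 0.08, adjusted p = 1.39e-06). The value with P214L against ZsGreen was -0.09 ± 0.08 (adjusted p = 0.633), and P214L exceeded ETV6 WT 1.498-fold (0.58, adjusted p = 3.51e-05). I209S P214L was again lower than P214L (-0.65, adjusted p = 9.27e-06). The gene 9930024M15Rik overlaps Sesn1 over 2584 bases on the same strand, so a strand setting would not separate reads in that overlap. It had 0 to 9 counts per library, where Sesn1 had 509 to 1029.

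**Figure D2:**
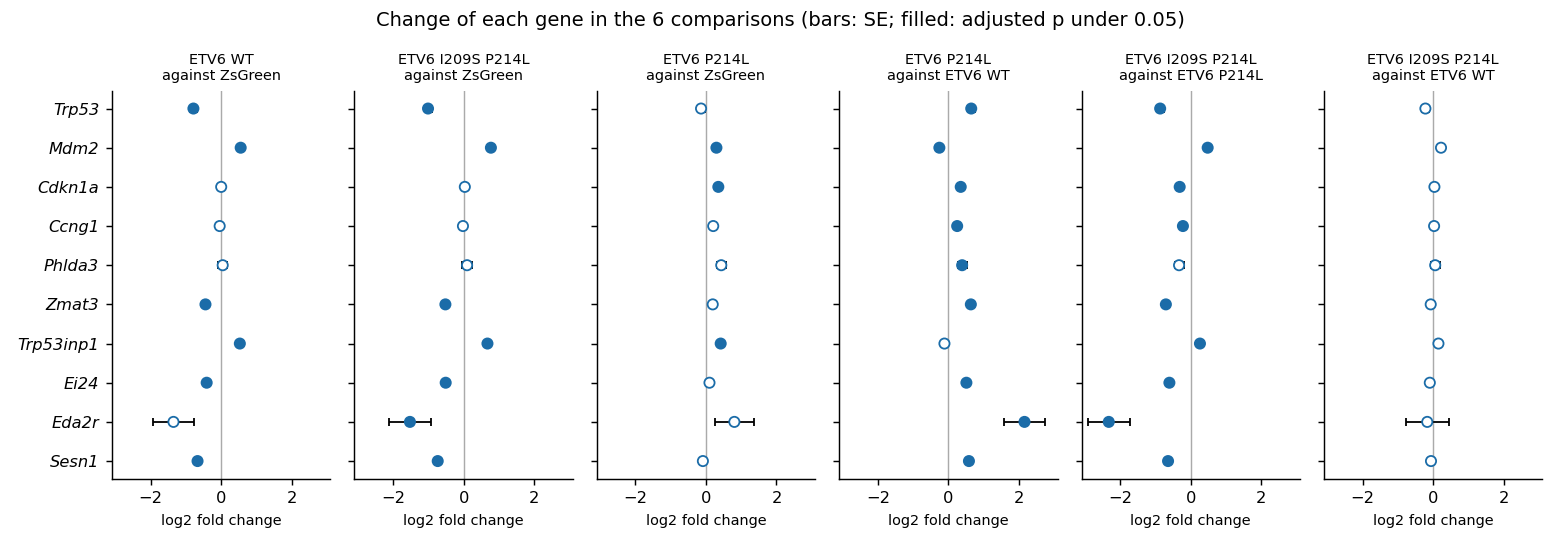
log2 fold change (horizontal axes) of the 10 genes in the 6 pairwise comparisons; points are edgeR estimates, bars their SE, and filled points have an adjusted p under 0.05. Trp53 and Mdm2 lie on opposite sides of 0 with ETV6 WT (-0.79 and 0.55) and with I209S P214L (-1.01 and 0.78) against ZsGreen, and no point is filled for I209S P214L against ETV6 WT.

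Counted over the 10 genes, ETV6 WT against ZsGreen gave 6 calls, 2 higher and 4 lower (37.7% of all genes tested were called, 19.5% higher and 18.2% lower). The median log2 fold change of the 10 was -0.23, against 0.03 over all genes tested. I209S P214L against ZsGreen gave 7 calls, 2 higher and 5 lower (41.5% of all genes, 20.8% higher and 20.7% lower), with a median of -0.26 against 0.03. P214L against ZsGreen gave 3 calls, all higher (5.08% of all genes, 3.47% higher), with a median of 0.25 against 0.01, and 1.61% of all genes were called lower. The libraries did not overlap for 7 of the 10 genes in each of these comparisons (46.2% of all genes tested with ETV6 WT, 47.8% with I209S P214L and 25.7% with P214L). These 3 comparisons share the ZsGreen libraries. The count with P214L rose to 5 with DESeq2, with only the compared groups in the fit, and when either ETV6 WT 1 or I209S P214L 1 was left out, and to 6 without ZsGreen 1, ETV6 WT 1 and I209S P214L 1. The share of all genes called in this comparison rose as well, from 5.08% to 6.82% with DESeq2 and 8.14% with only the compared groups. It was 6.2% without ETV6 WT 1, 5.53% without I209S P214L 1 and 6.84% without those 3 libraries.

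P214L against ETV6 WT, which compares ETV6 with and without the export signal, gave 9 calls of 10, with Mdm2 the lower one and 8 higher (29.2% of all genes called, 14.6% higher and 14.6% lower). Trp53inp1 was the gene not called. I209S P214L against P214L also gave 9 calls, with Mdm2 and Trp53inp1 higher and 7 lower (33% of all genes, 15.9% higher and 17.1% lower), and Phlda3 was not called. In both comparisons the libraries of the compared groups did not overlap for any of the 10 genes (45.4% and 48.2% of all genes tested).

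I209S P214L against ETV6 WT gave 0 calls among the 10 genes with edgeR (0.0338% of all genes, that is 5 genes, 0.0135% higher and 0.0203% lower). At an unadjusted p under 0.05 there were 2, Mdm2 (0.22) and Trp53 (-0.22), where 3.46% of all genes passed that threshold. DESeq2, which adjusted over 5485 genes here, called Mdm2 alone. The other values were 0.15 for Trp53inp1, 0.06 for Phlda3, 0.04 for Cdkn1a, 0.03 for Ccng1, -0.06 for Sesn1, -0.07 for Zmat3, -0.10 for Ei24 and -0.17 for Eda2r. The libraries did not overlap for Mdm2 only (8.33% of all genes).

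ETV6 WT against ZsGreen and I209S P214L against P214L share no library. Of the 10 genes, 6 were called in both (26.4% of all genes tested were), and all 6 had the same sign: Trp53, Zmat3, Sesn1 and Ei24 lower, Mdm2 and Trp53inp1 higher. Over all genes called in both, 3881 of 3905 had the same sign. Cdkn1a and Ccng1 were called in the second comparison (-0.32 and -0.22) and stood at 0.00 and -0.04 in the first.

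**Figure D3:**
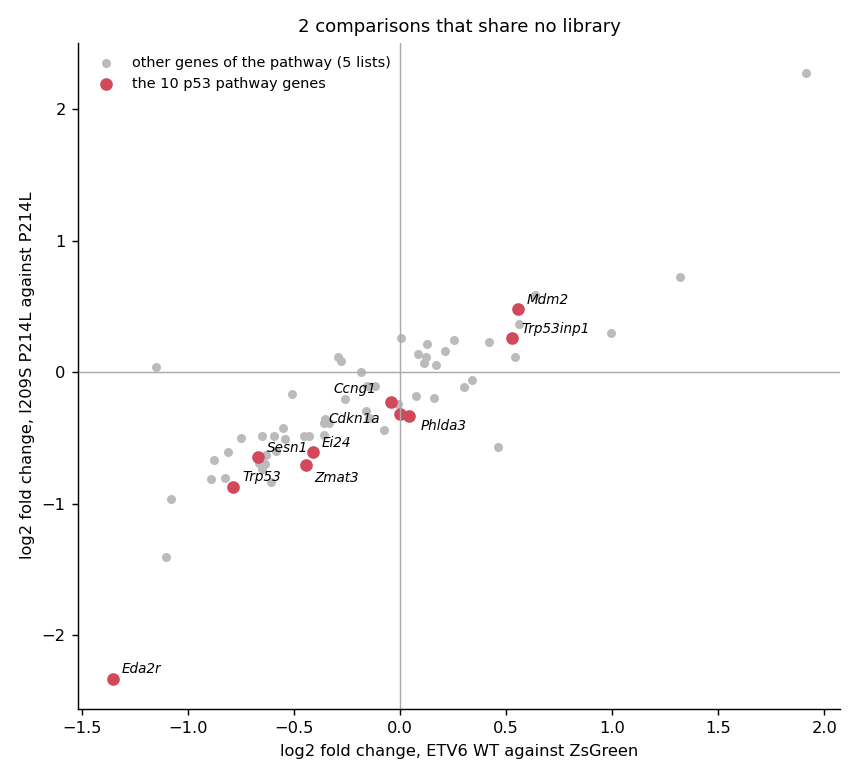
log2 fold change of ETV6 WT against ZsGreen (horizontal) and of I209S P214L against P214L (vertical) for the 10 genes (red, named) and the tested genes of 5 other lists of the pathway (grey). Mdm2 and Trp53inp1 sit at the upper right, Trp53, Sesn1, Ei24, Zmat3 and Eda2r at the lower left, and Cdkn1a, Ccng1 and Phlda3 near 0 on the horizontal axis and below 0 on the vertical one.

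Other genes of the pathway were taken from 5 lists. Their counts are to be read against the shares of all genes tested: 19.5% called higher and 18.2% lower with ETV6 WT, 20.8% and 20.7% with I209S P214L, and 3.47% and 1.61% with P214L, each against ZsGreen, with medians of 0.03, 0.03 and 0.01. Of 16 regulators of p53, 14 were tested, and with ETV6 WT 3 were higher and 3 lower, a share close to that of all genes (median 0.04). Cdkn2a, whose product ARF blocks Mdm2 and whose other product p16 inhibits cyclin-dependent kinases, rose from 1.67 ± 0.692 to 6.26 ± 1.20 CPM (1.91 ± 0.29, adjusted p = 4.88e-05) and reached 10.3 ± 0.857 CPM with I209S P214L (2.64 ± 0.29, adjusted p = 1.13e-06). Its products cannot be told apart in counts per gene. With P214L it stood at 2.13 ± 0.311 CPM, below ETV6 WT (-1.55, adjusted p = 0.000465). Chek1 and Chek2, the checkpoint kinases that signal DNA damage to p53, fell with ETV6 WT (-1.08 and -0.60) and with I209S P214L (-1.17 and -0.65). Mdm4, the partner of Mdm2 that binds and inhibits p53, was the regulator called with P214L, from 276 ± 10.5 to 333 ± 18.9 CPM (0.27 ± 0.07, adjusted p = 0.0259), and the fits without any one ZsGreen library, P214L 1 or P214L 3 lost that call.

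Of 12 targets for growth arrest and DNA repair, 11 were tested. With ETV6 WT 3 were higher and 2 lower (median 0.12), with I209S P214L 4 higher and 2 lower (0.19), and with P214L 2 higher (0.08). Gadd45a, which acts in growth arrest after DNA damage, rose in all 3 groups: it went from 29.95 ± 3.07 CPM to 74.7 ± 12.1 under ETV6 WT (1.32, adjusted p = 1.03e-07), to 44.9 ± 1.20 in P214L cells (0.58, 0.00669) and to 74.0 ± 8.64 in I209S P214L cells (1.31, 9.23e-08). Xpc, which recognises DNA damage for excision repair, rose with ETV6 WT (0.56) and I209S P214L (0.63). Gtse1, a microtubule protein of dividing cells that also restrains p53, fell with ETV6 WT (-0.61) and I209S P214L (-0.89). Polk, a DNA polymerase that copies past damage, was the other gene called with P214L (0.51, adjusted p = 0.0214). That call was lost, and the count for P214L fell to 1, without ZsGreen 1, ZsGreen 3, P214L 1 or P214L 3 (adjusted p up to 0.124). In these fits 2.39% to 4.06% of all genes were called, against 5.08% in the main fit.

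Of 12 targets for cell death, 9 were tested. With ETV6 WT 5 were lower and 0 higher (median -0.36; 18.2% of all genes were lower), and with I209S P214L 7 were lower and 0 higher (-0.37; 20.7% of all genes were lower). Fas, the death receptor, went from 8.81 ± 1.88 CPM to 4.10 ± 0.00695 with ETV6 WT (-1.11 ± 0.24, adjusted p = 0.00115) and to 3.54 ± 0.992 in I209S P214L cells (-1.31, adjusted p = 0.000248). Siva1, a pro-apoptotic adaptor, fell with both (-0.65 and -0.73). Aen, a nuclease of apoptotic DNA breakdown, also fell with ETV6 WT (-0.43) and with I209S P214L (-0.37). Bid, which carries the death signal to mitochondria, was likewise called lower with ETV6 WT (-0.36) and with I209S P214L (-0.54). With P214L 0 were called by edgeR and 0 by DESeq2 (median 0.08; at an unadjusted p under 0.05 there were 2, Bax at 0.18 and Siva1 at -0.24, where 17.9% of all genes passed that threshold), and P214L against ETV6 WT gave 7 higher of 9 (14.6% of all genes were higher). Without ETV6 WT 2, that count was 4, and 23.6% of all genes were called in either direction, against 29.2% in the main fit.

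Of 12 targets for metabolism and stress, 9 were tested. With ETV6 WT 1 was higher and 2 lower (median -0.12), with I209S P214L 2 were higher and 2 lower (-0.16), and with P214L 2 were higher (0.02). The 3 calls with ETV6 WT became 5 without TMM (37.8% of all genes called) or without the filter (21.2% of 26739 genes). They became 6 with a replicate block (39.1%), and 5 without ETV6 WT 3 (32.8%) or I209S P214L 1 (37.3%). In the main fit 37.7% of all genes were called. The 4 calls with I209S P214L became 2 without I209S P214L 1 (37.7% of all genes called, against 41.5% in the main fit). Sat1, which breaks down polyamines, rose from 128 ± 13.5 CPM to 256 ± 21.1 under ETV6 WT (adjusted p = 3.7e-08), to 208 ± 9.19 in P214L cells (4.34e-05) and to 256 ± 14.5 in I209S P214L cells (2.72e-08). Gpx1, a peroxide-removing enzyme, was the other one called with P214L (0.82, adjusted p = 0.00969), but not without ZsGreen 1 (adjusted p = 0.0638) or P214L 1 (adjusted p = 0.0557). Slc19a2, a thiamine transporter, and Tigar, which lowers glycolysis, fell with ETV6 WT (-0.36 and -0.55) and I209S P214L (-0.44 and -0.62), although 6 and 3 of 12 leave-one-out fits lost the Tigar call.

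p53 lowers many genes of the cell cycle indirectly, as p21 lets the repressor complex DREAM form on them. All 12 genes of this list were tested, and with ETV6 WT 12 were lower (median -0.66), with I209S P214L 12 were lower (-0.82) and with P214L 1 was lower (-0.20). Ccnb1 and Cdk1, the cyclin and kinase of mitotic entry, fell with ETV6 WT (-0.88 and -0.83) and with I209S P214L (-0.92 and -0.92). Mcm2, a subunit of the replicative helicase, was the gene called with P214L (-0.25 ± 0.07, adjusted p = 0.0357), a call lost without ZsGreen 1, ZsGreen 3 or any one P214L library. The count of this list with P214L ran from 0 without the filter (3.64% of all genes called) to 4 with only the compared groups (8.14%). In the main fit that share was 5.08%. Cdkn1a, which encodes p21, was not called in the comparisons in which all 12 of these genes fell against ZsGreen. Only its RNA was measured, and the part of p21 in the level of these genes was not tested.

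**Figure D4:**
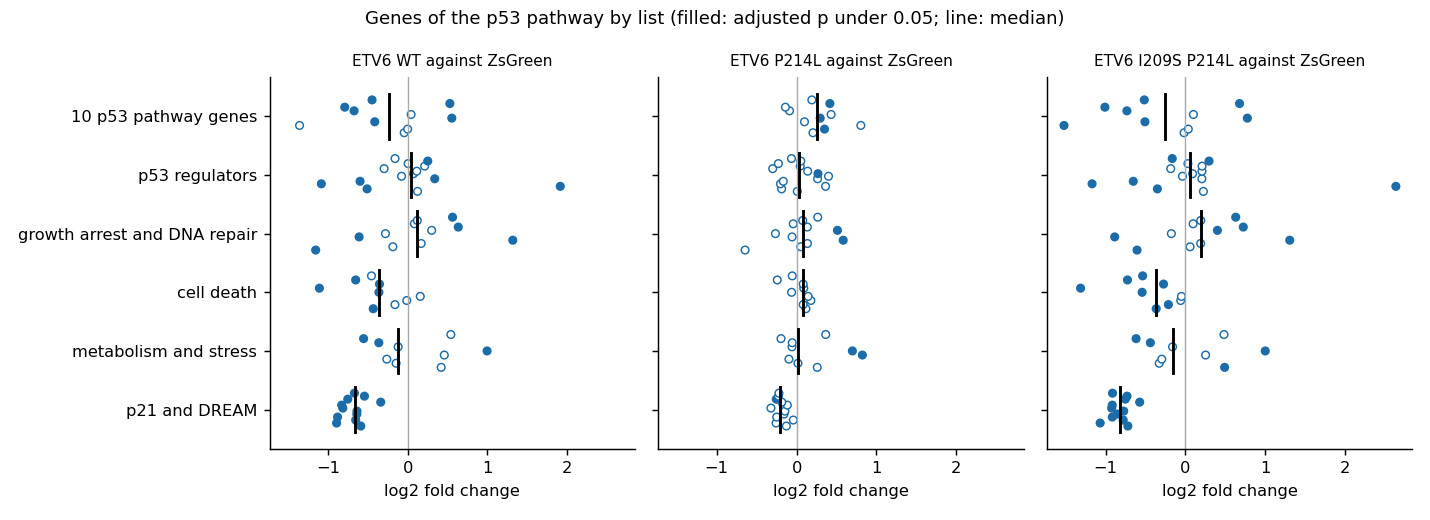
log2 fold change against ZsGreen (horizontal axes) of the tested genes in 6 lists, for ETV6 WT, P214L and I209S P214L; filled points have an adjusted p under 0.05 and black lines are list medians. The p21 and DREAM list lies wholly below 0 in the outer panels (medians -0.66 and -0.82), and the 10 p53 pathway genes lie on both sides of 0 there.

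In the authors' deposited table, members with an adjusted p under 0.05 numbered 6 for ETV6 WT, 6 for P214L and 6 for I209S P214L against ZsGreen, 9 for ETV6 WT against P214L, 0 for ETV6 WT against I209S P214L and 10 for P214L against I209S P214L. The share of all genes passing there was not computed, so these counts cannot be set against it. For P214L against ZsGreen, the authors' deposited table passes Ccng1, Zmat3 and Phlda3, which were not called here. For I209S P214L against ZsGreen it does not pass Eda2r (adjusted p = 0.106 in the authors' deposited table), which was called here. For P214L against I209S P214L it also passes Phlda3.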

How the data were processed

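Per the submitters' processing notes, reads were aligned to mm39 with HISAT2 2.0.5 and counted with featureCounts 1.5.0-p3. The annotation release and the strand setting are not given in the sources used here. The deposited table holds raw read counts per gene, the authors' FPKM, and the authors' log2 fold changes, p-values and adjusted p-values, beside gene lengths. Their columns of group means were not used. The tests were run on the counts with edgeR 4.0.16 under R 4.3.3 (filterByExpr, TMM, quasi-likelihood test on all 12 libraries, 1 mean per group), with Benjamini-Hochberg adjustment over 14794 genes and a threshold of 0.05. CPM values use TMM-scaled library sizes. Alternatives used DESeq2 1.42.0, limma 3.58.1 (voom), other scalings and filters, a replicate block and left-out libraries. The steps were tested on simulated data. Counts of list genes under the alternatives were added after seeing the data.

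The members and lists were chosen with earlier results of these data known. All 10 members have their values given in each pairwise comparison. The other lists are described mainly against ZsGreen, where the genes named are mostly the up to 3 called ones with the smallest adjusted p. Their genes called between the ETV6 constructs are largely left out. Total counts of 14301683 to 18607595 set the precision. Counts of different replicates differed by more than sampling noise in every group. Some single-gene results are not reported here.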

Additional observations from a re-analysis of the deposited data

How the results depend on the processing

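Of the 34 calls of a member in a comparison, 5 were lost under at least 1 alternative and 0 changed sign, and of the 26 pairs not called, 6 were called and 8 changed sign under at least 1 alternative. The members called for P214L against ZsGreen (3) became 5 with DESeq2, with only the compared groups in the fit and with a replicate block, and 6 without ZsGreen 1, ETV6 WT 1 and I209S P214L 1, while the share of all genes called went from 5.08% to 6.82%, 8.14%, 5.96% and 6.84% in the same order. For I209S P214L against ETV6 WT, 0 became 1 with DESeq2, where the share called went from 0.0338% of 14794 genes to 0.419% of 5485. Leaving out each library in turn gave 6 to 7 members for ETV6 WT, 2 to 5 for P214L and 6 to 7 for I209S P214L against ZsGreen, 8 to 9 for P214L against ETV6 WT, 0 to 0 for I209S P214L against ETV6 WT, 8 to 10 for I209S P214L against P214L, and 9 to 10 for any difference. In the same order, the share of all genes called ran from 31.5% to 37.3%, 2.39% to 6.2%, 35% to 41.2%, 22.3% to 29.7%, 0.00649% to 0.0392%, 25.7% to 33.4% and 35.6% to 39.8%.

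Changes of sign were among values not called. For ETV6 WT against ZsGreen, Cdkn1a was 0.026 without TMM, 0.019 without the filter and 0.000 with limma-voom (leave-one-out -0.069 to 0.026), and Phlda3 was -0.074 without the 3 libraries named above (leave-one-out -0.113 to 0.150). For I209S P214L against ZsGreen, Ccng1 was 0.016 without TMM (leave-one-out -0.087 to 0.009) and Cdkn1a -0.104 without those 3 libraries (leave-one-out -0.041 to 0.081). For I209S P214L against ETV6 WT, Eda2r was 0.217 with limma-voom (leave-one-out -0.634 to 0.452), Ccng1 -0.060 without those 3 libraries (leave-one-out -0.035 to 0.066), Cdkn1a ran from -0.031 to 0.095 and Phlda3 from -0.061 to 0.211. The cause was not tested. DESeq2 gave no adjusted p for Phlda3 and Eda2r in that comparison.

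Deviations from the group means correlated above 0.1 in 2 of 18 pairs with the same replicate number and in 2 of 36 pairs with different numbers. The first 2 were ETV6 WT 1 with I209S P214L 1 (r = 0.528) and ETV6 WT 3 with I209S P214L 3 (r = 0.254). Among different numbers the highest r was 0.161. Not every library correlated best with its own number. Whether equal numbers mark a shared culture, batch or day is not given by the labels, and the main fit did not pair them. With the replicate block, 5 members were called for P214L against ZsGreen, 6 for I209S P214L against ZsGreen and 10 for I209S P214L against P214L. The shares of all genes called in that fit were 5.96%, 43% and 34.5%, against 5.08%, 41.5% and 33% in the main fit. Eda2r, at 3 to 49 counts per library, is the member whose values depth limits most.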

Other observations

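By the root mean square difference in centred log2 CPM over the 12 libraries, the genes most like Trp53 included Shmt2 (0.0915) and Fhl3 (0.0935), where the SD of Trp53 itself over the libraries was 0.464. Shmt2 stood at 235.6 CPM in ZsGreen cells, 131.5 under ETV6 WT, 203.8 in P214L cells and 119.2 in I209S P214L cells. The genes most like Mdm2 (SD 0.304) were Arhgap30 (0.0707), Ankrd44 (0.0718) and Ostm1 (0.0724), and Ostm1 stood at 36.4, 57.1, 46.9 and 61.6 CPM in the same order. The genes most like Cdkn1a (SD 0.177) were Fth1 (0.0784), Scamp5 (0.0813) and Eef2k (0.0851), and Fth1, the ferritin heavy chain, stood at 1331, 1338, 1707 and 1402 CPM. These are descriptions of 12 libraries in 4 groups, with no test.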
